A study of Mus musculus with 12 samples.

Results

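The 6 genes described here lie close in gene order on chromosomes in 3 pairs: Fam5b with Astn1, Chrm3 with Ryr2, and Slpi with Rbpjl. They are 6 of the 23284 genes in the count tables, and all 6 were among the 14989 that passed the low count filter. The members were chosen by their measured difference between the tumour genotypes, with both genes of the first 2 pairs higher in one genotype and the genes of the third pair moving in opposite directions. Their levels and differences by genotype are therefore a description, with no test. The question asked of them is whether the genes of a pair also vary together among tumours of the same genotype, which the choice did not use.

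Polyadenylated RNA of 12 neuroendocrine carcinomas of the mouse thyroid was sequenced, in a study of the genes regulated by Crebbp, an acetyltransferase of histones and a transcriptional coactivator. The genotype label gives Rb1/Trp53 for 7 tumours (RP) and Rb1/Trp53/Crebbp for 5 tumours (RPC), so both groups carry the Rb1 and Trp53 alleles and RPC adds Crebbp. Tumours are named by group and by the number in their title. The sources used here do not state the promoter or Cre that drives the deletions, the exons removed, the age of the mice or whether tumours came from separate mice. The p-values below thus measure the spread between these tumours.

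Total gene counts were 9.11 M to 57.3 M per RP tumour, the highest being RP 5, and 9.14 M to 20.5 M per RPC tumour. Levels are given as CPM, the counts per 1 M of a library after TMM scaling, and 1 count stood for 0.0167 to 0.104 CPM. Crebbp itself was 54.6 ± 20.04 CPM (SD, n = 7) in RP and 53.9 ± 4.19 (SD, n = 5) in RPC, so its total count does not check the label. All 12 C cell and neuroendocrine markers passed the filter, with a summed level of 100000 to 206000 CPM in RP and 30200 to 135000 in RPC. Thyroid follicular markers summed to 2150 to 9370 CPM in RP and 474 to 5800 in RPC, and adipocyte markers to 117 to 2430 and 82.3 to 279 CPM. By edgeR 11 of 12 tested adipocyte genes were lower in RPC, against 8.61% of all tested genes. In bulk tumours, fewer cells of a type and less RNA per cell cannot be told apart. With the follicular score as a covariate edgeR called 3 of 14989 genes where 2736 were called without it.

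Genes that are neighbours can share enhancers, an open chromatin domain or a promoter region that fires in both directions, and can also lie side by side with no shared control. Fam5b, now named Brinp2, encodes a neural protein of the BRINP family, and Astn1 encodes astrotactin, a membrane protein through which young neurons migrate along glial fibres; both proteins carry a perforin-like domain. Chrm3 encodes the M3 muscarinic acetylcholine receptor, which signals through Gq to release stored calcium, and Ryr2 encodes the ryanodine receptor that releases calcium from the endoplasmic reticulum, best known in heart muscle. Slpi encodes a secreted inhibitor of leukocyte elastase and cathepsin G, and Rbpjl encodes a relative of the Notch factor Rbpj that joins Ptf1a in the PTF1 complex of pancreatic acinar cells.

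In the RefSeq order of GRCm38.p6, Fam5b lies on the minus strand and Astn1 on the plus strand of chromosome 1, pointing away from each other with no annotated gene between them. Chrm3 and Ryr2 both lie on the minus strand of chromosome 13, with 5 annotated genes between them. The 250 bases before their starts are chr13:10360804-10361053 and chr13:12106946-12107195, much farther apart than those of Slpi and Rbpjl printed below. Of those 5 annotated genes only Zp4-ps is in the count tables, at 0 counts in every tumour. Slpi on the minus strand and Rbpjl on the plus strand of chromosome 2 also point apart, with Mir7678 and Matn4 between them. Matn4, which encodes a matrilin of the extracellular matrix, overlaps Rbpjl on the opposite strand in the GENCODE M21 annotation. The counting's strand setting was not stated, so reads of Matn4 and Rbpjl in the shared stretch cannot be told apart.

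The 250 bases before the annotated start were read from RefSeq (GRCm38.p6) for the 5 members in its promoter table, and were searched on both strands for TGGGAA or TTCCCA, the core bound by Rbpj and Rbpjl, for CAGCTG, an E-box, and for TGACG or CGTCA, the core of the CREB site through which Crebbp is recruited. The Rbpjl and Slpi windows are shown because these neighbours moved in opposite directions, and the Astn1 window because its pair gave the highest correlation. Each is printed 5′ to 3′ on the gene's strand, with motif matches in capitals.
Rbpjl, chr2:164402944-164403193, plus strand: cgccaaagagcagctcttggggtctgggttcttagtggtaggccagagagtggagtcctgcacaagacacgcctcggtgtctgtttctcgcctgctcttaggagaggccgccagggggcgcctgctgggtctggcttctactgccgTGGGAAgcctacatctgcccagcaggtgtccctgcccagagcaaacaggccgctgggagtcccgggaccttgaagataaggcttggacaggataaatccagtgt
Slpi, chr2:164356508-164356757, minus strand: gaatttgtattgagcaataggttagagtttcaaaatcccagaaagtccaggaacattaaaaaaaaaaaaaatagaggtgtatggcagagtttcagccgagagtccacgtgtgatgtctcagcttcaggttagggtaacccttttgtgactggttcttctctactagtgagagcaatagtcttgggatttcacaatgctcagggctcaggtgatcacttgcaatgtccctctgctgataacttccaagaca
Astn1, chr1:158362054-158362303, plus strand: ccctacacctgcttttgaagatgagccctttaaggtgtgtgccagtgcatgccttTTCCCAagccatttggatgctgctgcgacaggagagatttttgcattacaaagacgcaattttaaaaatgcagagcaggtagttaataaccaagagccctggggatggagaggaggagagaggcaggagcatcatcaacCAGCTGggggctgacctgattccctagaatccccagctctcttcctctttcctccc
The Rbpjl window holds TGGGAA, 104 bases before the start. The Astn1 window holds TTCCCA at 195 bases and CAGCTG at 56 bases before the start. Among 32851 promoter windows of the same length, 21.6% hold TGGGAA or TTCCCA and 13.0% hold CAGCTG, so such matches are common. None of the letters searched is in the Slpi, Chrm3 or Ryr2 window, and 17.8% of all windows hold TGACG or CGTCA. The windows also differed in base composition: GC made up 63.2% of the Ryr2, 61.2% of the Chrm3, 60.4% of the Rbpjl, 50.4% of the Astn1 and 42.0% of the Slpi window, where the median window has 52.4%.

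Fam5b was close to absent in most RP tumours and low but present in every RPC tumour. Over the 7 RP tumours its level ran from 0 through a median of 0.104 to 1.34 CPM, and RP 5 alone held 80 of the 91 Fam5b counts of the group. In RPC 1 to 5 it was 3.28, 4.49, 2.59, 3.82 and 5.14 CPM. The groups did not overlap, and the lowest RPC tumour stood 1.93-fold above RP 5. The log2 fold change was 3.34 ± 0.69 (SE), with means of 0.308 ± 0.473 (SD, n = 7) and 3.86 ± 0.998 CPM (SD, n = 5). In RP, 5 tumours held 3 counts or fewer, the level taken as the floor, so the fold rests on few RP counts and on RP 5.

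Astn1 was likewise low in the RP tumours other than RP 5 and present in every RPC tumour, at a higher level than Fam5b. In RP it ran from 0.174 through a median of 0.625 to 12.2 CPM, the highest again being RP 5, with 727 of 776 counts. In RPC 1 to 5 it was 41.0, 30.6, 13.8, 29.8 and 39.4 CPM. RPC 3, the lowest for both genes, stood only 1.13-fold above RP 5 for Astn1. The log2 fold change was 3.61 ± 0.87 (SE), from 2.28 ± 4.38 (SD, n = 7) to 30.9 ± 10.8 CPM (SD, n = 5). RP 5 held 19.3 times the mean of the other 6 RP tumours for Astn1 and 9.85 times for Fam5b. Without RP 5 the RP means were 0.63 ± 0.422 CPM for Astn1 and 0.136 ± 0.141 CPM for Fam5b (SD, n = 6), and the log2 fold changes were 5.61 and 4.73.

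Chrm3 was low in all tumours. Its RP levels ran from 0.157 through 0.385 to 1.14 CPM, the highest in RP 3, and its RPC levels in tumours 1 to 5 were 1.89, 6.78, 2.31, 1.33 and 2.03 CPM. RPC 2 stood well above the others, while RPC 4 was 1.17-fold above RP 3. The log2 fold change was 2.77 ± 0.51 (SE), from 0.428 ± 0.335 (SD, n = 7) to 2.87 ± 2.22 CPM (SD, n = 5), on 56 counts in RP and 196 in RPC.

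Ryr2 was more even within each genotype. It ran from 0.633 through 1.54 to 1.96 CPM in RP, and was 3.91, 9.26, 5.33, 5.42 and 5.0 CPM in RPC 1 to 5. RPC 2 was the highest tumour for Ryr2 as it was for Chrm3, and the lowest RPC tumour stood 1.99-fold above the highest RP tumour. The log2 fold change was 2.04 ± 0.30 (SE), from 1.39 ± 0.469 (SD, n = 7) to 5.78 ± 2.03 CPM (SD, n = 5).

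Slpi varied widely within each genotype and had counts enough to show it, 84 to 3606 per tumour. It was 18.0, 10.5, 29.6, 4.86, 2.16, 36.5 and 61.3 CPM in RP 1 to 7, and 227, 77.4, 87.4, 63.1 and 112 CPM in RPC 1 to 5. The groups all but met, with RPC 4 only 1.03-fold above RP 7. The log2 fold change was 2.29 ± 0.66 (SE), from 23.3 ± 21.0 (SD, n = 7) to 114 ± 66.1 CPM (SD, n = 5).

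Rbpjl went the other way and varied least of the 6 in RP, with an SD of log2 CPM of 0.46 against 0.53 to 1.8 for the others. It was 11.0, 11.1, 10.6, 12.3, 14.2, 10.8 and 5.14 CPM in RP 1 to 7, and 3.09, 1.74, 3.49, 2.93 and 1.52 CPM in RPC 1 to 5. RP 7 was the one low RP tumour, 1.47-fold above the highest RPC tumour. The log2 fold change was -2.06 ± 0.28 (SE), from 10.7 ± 2.77 (SD, n = 7) to 2.55 ± 0.871 CPM (SD, n = 5).

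**Figure D1:**
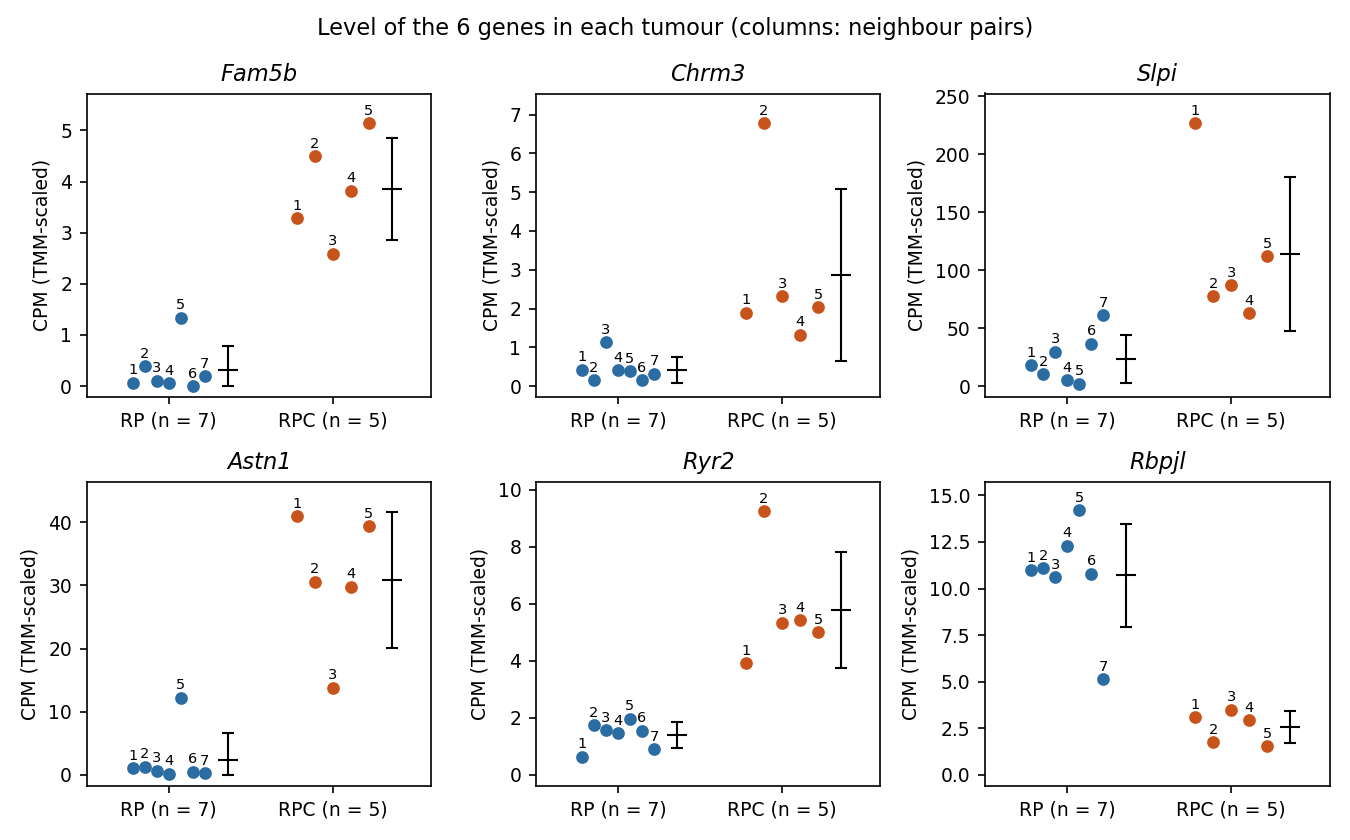
Level of each of the 6 genes (CPM, TMM-scaled, linear axes from 0) in the 7 RP and 5 RPC tumours; points are tumours with their number, and the bar beside each group is the mean ± SD, cut at 0. RP 5 is the highest RP tumour for Fam5b (1.34 CPM) and Astn1 (12.2 CPM), and RP 7 the lowest for Rbpjl (5.14 CPM) and the highest for Slpi (61.3 CPM).

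All 6 genes passed edgeR's adjusted threshold of 0.05, and the ranges of the groups overlapped for none. Both are read from the contrast on which the members were chosen and are a description. Over all tested genes 18.3% were called, 9.64% higher and 8.61% lower in RPC, and 6.26% had ranges that did not overlap. Of 14865 neighbouring tested pairs, 2.46% had both genes called in the same direction, as Fam5b with Astn1 and Chrm3 with Ryr2 do. Of 14845 tested pairs with a tested gene between them, 1.49% had both called in opposite directions, as Slpi with Rbpjl do. These shares are the pool from which the pairs were picked.

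The RP tumour nearest to RPC was not the same for each pair. RP 5 was nearest for Fam5b and Astn1, RP 3 for Chrm3, RP 5 for Ryr2, and RP 7 for both Slpi and Rbpjl. Over the 2736 called genes, RP 1 lay nearer the RPC median than the RP median for 27.0%, RP 5 for 24.8%, RP 3 for 23.3% and RP 7 for 8.37%, against 2.12% to 2.96% for RP 2, 4 and 6.

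For Fam5b and Astn1 the RP tumours gave little to correlate beyond RP 5, since the other 6 held 0 to 5 Fam5b counts each. Over the 7 RP tumours the Pearson r of log2 CPM was 0.84 (exact two-sided permutation p = 0.0335; adjusted p = 0.0671 over the 6 Pearson correlations of the 3 pairs) and Spearman's rho was 0.68 (exact p = 0.11; adjusted p = 0.165 over the 6 Spearman correlations). Without RP 5 the r was 0.38, and without RP 2 and RP 5, the tumours farthest from the median of Fam5b, it was -0.20. With each genotype's mean removed and all 12 tumours used, r was 0.83 (permutation p = 0.0172; adjusted p = 0.0671) and rho 0.64 (permutation p = 0.0482; adjusted p = 0.145), and r was 0.55 without RP 5 and RP 6. The centred r without RP 5 alone was 0.45. None of these 4 values passed the adjusted threshold.

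In RPC, with 5 tumours and so no correlation, the order from high to low was 5, 2, 4, 1, 3 for Fam5b and 1, 5, 2, 4, 3 for Astn1. RPC 3 was lowest for both, and 7 of the 10 pairs of RPC tumours were ordered alike by both genes, as were 16 of the 21 pairs of RP tumours. Apart from RPC 1 the orders were the same.

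The share of Fam5b in the pair's counts asks whether the balance within the pair shifted; it depends on gene length and is compared only between tumours. It was 9.91% in RP 5 (95% exact Clopper-Pearson interval 7.94 to 12.2) and between 7.41% (5.58 to 9.6) in RPC 1 and 15.8% (12.1 to 20.1) in RPC 3. RP 5 thus fell within the range of RPC tumours, and RPC 1 and RPC 3 differed by more than counting error. In the other 6 RP tumours together the share was 18.3% (9.52 to 30.4) on 11 and 49 counts. Such intervals cover counting error alone.

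Chrm3 and Ryr2 did not show a common variation within RP. The r over 7 tumours was -0.08 (exact two-sided permutation p = 0.857; adjusted p = 0.857) and rho was -0.29 (exact p = 0.556; adjusted p = 0.64), and r was -0.28 without RP 2 and RP 3. The centred r over 12 tumours was 0.28 (permutation p = 0.381; adjusted p = 0.457), rho was 0.15 (permutation p = 0.64; adjusted p = 0.64), and r was -0.34 without RP 3 and RPC 2. Without RPC 2 alone, the highest tumour for both genes, the centred r was -0.08. Of the tumour pairs, 8 of 21 in RP and 7 of 10 in RPC were ordered alike. The RPC order was 2, 3, 5, 1, 4 for Chrm3 and 2, 4, 3, 5, 1 for Ryr2. RPC 2 was first for both, and apart from RPC 4 the orders were the same.

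Counting error is wide for Chrm3 in RP. RP tumours held 2 to 23 Chrm3 counts, and the 95% exact Poisson interval of RP 3, the highest, was 0.572 to 2.05 CPM against 0.244 to 0.578 in RP 5, the deepest. The Chrm3 counting intervals of the 7 RP tumours overlapped for most pairs of tumours. How strong a relation within RP could be detected at this depth was not tested. Chrm3 made up 20.2% (15.6 to 25.4) of the pair's counts over RP, 24.1% (17.2 to 32.1) over RP without RP 5 and 32.6% (28.8 to 36.5) over RPC. Within RPC the share ran from 19.7% (11.5 to 30.5) in RPC 4 to 42.3% (34.9 to 50) in RPC 2. The intervals over a group pool its reads and leave out the spread between tumours. By tumour, log2 CPM of Ryr2 minus Chrm3 was 1.59 ± 0.95 (SD, n = 7) in RP and 1.16 ± 0.54 (SD, n = 5) in RPC. A shift of this balance with genotype was not tested.

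Slpi and Rbpjl varied in opposite directions within RP, as they do between genotypes. The r over 7 RP tumours was -0.76 (exact two-sided permutation p = 0.029; adjusted p = 0.0671), and rho was -0.96 (exact p = 0.00278; adjusted p = 0.0167) and 0.0334 over all 12 Pearson and Spearman tests. It is the one value of the 12 past the adjusted threshold, where r within RP has an adjusted p of 0.101 over the 12. Only 1 of the 21 pairs of RP tumours was ordered alike by both genes. The order from high to low was 7, 6, 3, 1, 2, 4, 5 for Slpi and 5, 4, 2, 1, 6, 3, 7 for Rbpjl. The r was -0.73 without RP 4 and RP 5, and -0.94 without RP 7, the tumour with the lowest Rbpjl. With the deep library of RP 5 thinned to 14.2 M counts, r was -0.69 (exact permutation p = 0.108) and rho was again -0.96.

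The ranks of Rbpjl within RP are not all resolved. RP 1, 2, 3 and 6 lay between 10.6 and 11.1 CPM, with 95% exact Poisson intervals of 9.31 to 12.8, 9.34 to 13.1, 8.66 to 12.9 and 9.04 to 12.8 CPM, so their order is within counting error. RP 5 (13.3 to 15.2 CPM) and RP 7 (4.08 to 6.38 CPM) lay outside those 4 intervals, and RP 4 (10.7 to 14.1 CPM) overlapped them. Slpi spanned a far wider range in the same tumours, 2.16 to 61.3 CPM.

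The opposite variation was not seen in RPC. Of 10 pairs of RPC tumours, 5 were ordered alike, with an order of 1, 5, 3, 2, 4 for Slpi and 3, 1, 4, 2, 5 for Rbpjl. Rbpjl held 19 to 74 counts per RPC tumour, so most of its ranks there are not resolved. By 95% exact Poisson intervals only RPC 3 (2.74 to 4.38 CPM) lay apart from RPC 2 (1.05 to 2.72) and RPC 5 (0.941 to 2.32). An absence of the relation in RPC is thus not shown. The centred r over 12 tumours was -0.51 (permutation p = 0.0911; adjusted p = 0.137) and rho -0.51 (permutation p = 0.076; adjusted p = 0.152). Without RP 5 and RP 7 the centred r was -0.05. Whether the relation differs between the genotypes was not tested.

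**Figure D2:**
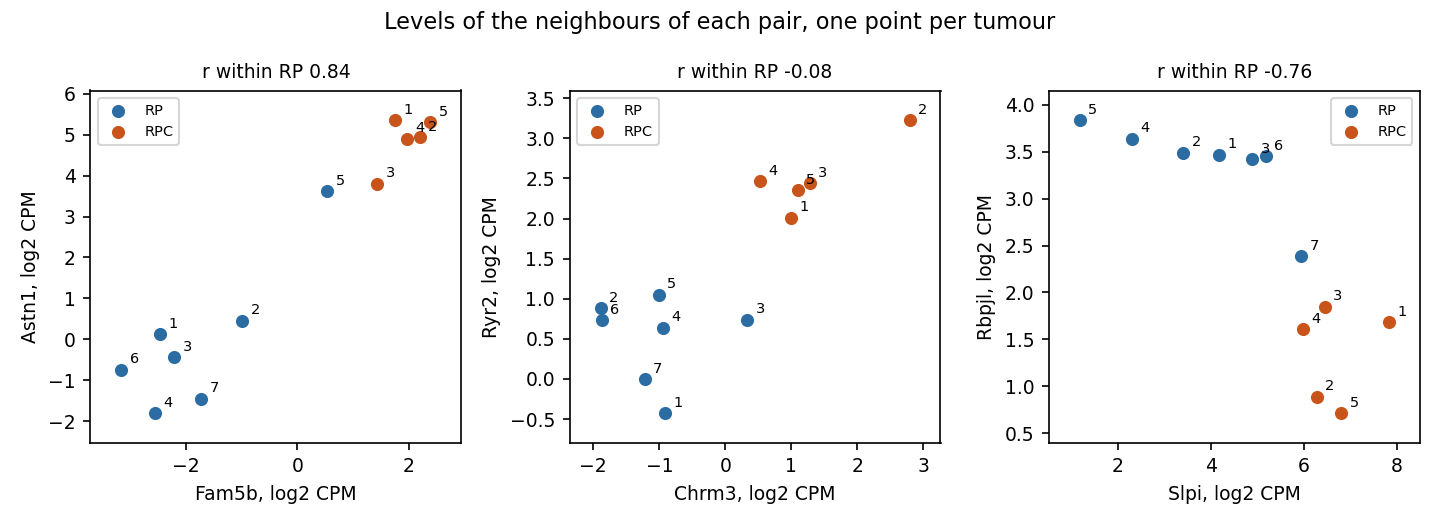
Log2 CPM of the first gene (horizontal axis) against the second gene (vertical axis) of each pair, one numbered point per tumour, with the Pearson r over the 7 RP tumours above each panel. RP 5 lies apart from the other RP tumours toward RPC for Fam5b and Astn1, Chrm3 and Ryr2 show no slope within RP, and Slpi and Rbpjl slope downward within RP.

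Correlations over all neighbouring tested genes set the scale for these values. Random or distant pairs were not measured beside them, so an effect of being neighbours was not tested. Over 14865 pairs of neighbouring tested genes the median r within RP was 0.14 (quartiles -0.30 and 0.53), and 15.6% of pairs had an exact p under 0.05 before adjustment. Of all these pairs 5.89% had an r within RP at least as high as Fam5b with Astn1, 2.89% had a centred r at least as high, and 62.8% had an r within RP at least as high as Chrm3 with Ryr2. Over the 14845 pairs with a tested gene between them, the median r within RP was 0.09, and 4.87% had an r as low as Slpi with Rbpjl or lower. For Spearman's rho that share was 0.222%. These pairs share the same 7 libraries and are given as a description.

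**Figure D3:**
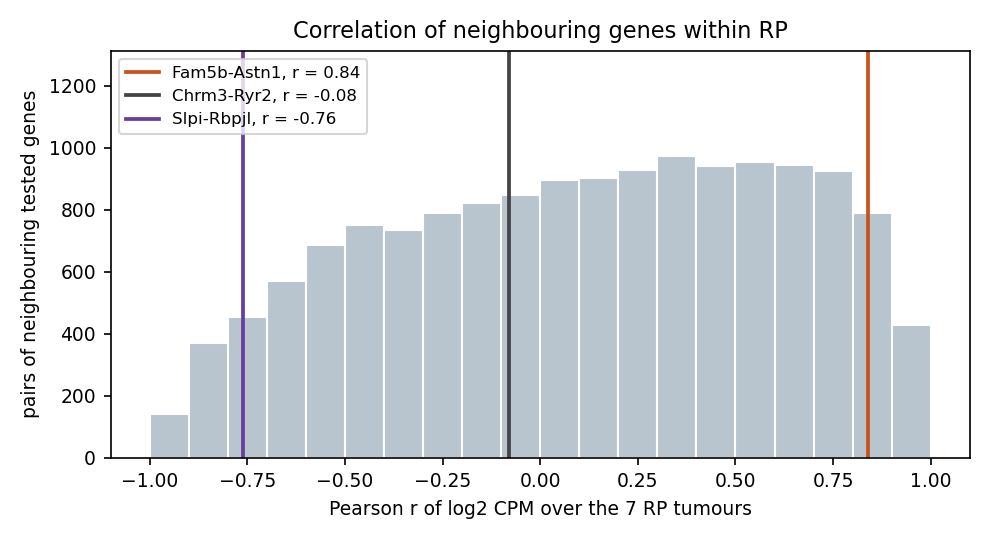
Number of neighbouring tested gene pairs (vertical axis) by their Pearson r of log2 CPM over the 7 RP tumours (horizontal axis, bins of 0.1), with vertical lines at the 3 described pairs. The pairs spread over the whole range with a median of 0.14; Fam5b with Astn1 lies in the upper tail at 0.84, Chrm3 with Ryr2 at -0.08, and Slpi with Rbpjl in the lower tail at -0.76.

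Each partner was also ranked among the other 14988 tested genes by centred r over the 12 tumours. Astn1 ranked 12 from the top for Fam5b, and Fam5b ranked 13 for Astn1. Ryr2 ranked 4718 for Chrm3, and Chrm3 ranked 3638 for Ryr2. Rbpjl ranked 767 from the bottom for Slpi, and Slpi 496 from the bottom for Rbpjl. The 7 RP tumours alone gave ranks of 215 for Astn1 and 182 for Fam5b from the top, and of 255 for Rbpjl and 276 for Slpi from the bottom, so the pairs of Fam5b and of Slpi then stood about equally far out. The centred ranks of the first pair rest on RP 5, without which its centred r was 0.45.

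The genes most alike to each member by the same measure, among named genes with a mean of at least 1 CPM, were as follows. Fam5b was most like Nsg1 (centred r of 0.91), Cldn11 (0.90) and Dact2 (0.88), and Astn1 most like Gpm6b (0.91), Cldn11 (0.89) and Ppfia2 (0.88), so Cldn11 stood near the top for both neighbours. For Chrm3 they were Zfp709 (0.95), Pwp2 (0.93) and Bcor (0.92), and for Ryr2 they were Ercc1 (0.91), Ppp4c (0.90) and Ppp1r14b (0.87). For Slpi they were Eif4e3 (0.94), Hs3st2 (0.92) and Slc7a2 (0.88), and for Rbpjl they were Gfra4 (0.84), Kcnj11 (0.83) and Col7a1 (0.83). All are picked as the highest of many values over the same 12 libraries. Without RP 5 the centred r of Cldn11 was 0.70 with Fam5b and 0.65 with Astn1, and that of Gpm6b with Astn1 was 0.63.

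The genes around each pair were read for genotype differences of their own. Whether any difference spreads along the chromosome was not tested. Among the 32 genes of the count tables that lie between the members or up to 5 genes to either side, 21 were tested, 3 of them were higher and 2 lower in RPC by edgeR's quasi-likelihood test with Benjamini-Hochberg adjustment, and 16 were not called. The share of all tested genes called by edgeR was 18.3%. Of the same 14989 genes DESeq2 called 3985 (1984 higher, 2001 lower) and limma voom 6357 (3294 higher, 3063 lower). Counts given below at an unadjusted p have no share over all genes beside them. The window was set after the annotation was seen.

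Around Fam5b and Astn1 edgeR called 0 of the 6 tested genes. Sec16b, the tested gene beside Fam5b, was 2.83 ± 1.47 CPM in RP and 2.72 ± 1.47 in RPC (log2 fold change -0.03 ± 0.40 SE; edgeR adjusted p = 0.966). Pappa2, beside Astn1, was 8.82 ± 6.49 and 20.9 ± 22.1 CPM (log2 fold change 1.26 ± 0.70 SE; adjusted p = 0.216). Rasal2, a Ras GTPase activator, was 14.2 ± 5.09 and 22.9 ± 8.20 CPM (0.70 ± 0.26; adjusted p = 0.0742). At an unadjusted edgeR p under 0.05, 2 of the 6 were higher, and DESeq2 and limma voom each called 1. The differences of 3.34 and 3.61 at the pair thus stood beside -0.03 and 1.26 at its nearest tested neighbours, and Pappa2 had a centred r of -0.35 with Astn1 (12 tumours).

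Around Chrm3 and Ryr2, 4 of 9 tested genes were called, all with smaller differences than the pair. Larp4b, an RNA-binding protein, rose from 57.0 ± 16.8 to 92.9 ± 12.3 CPM (log2 fold change 0.70 ± 0.19 SE; edgeR adjusted p = 0.0242). Dip2c rose from 17.6 ± 3.51 to 25.7 ± 2.81 CPM (0.55 ± 0.14; adjusted p = 0.0244), and Mtr, methionine synthase, from 11.0 ± 3.24 to 17.4 ± 1.23 CPM (0.66 ± 0.19; adjusted p = 0.03). Lgals8, a galectin, fell from 102 ± 12.4 to 78.0 ± 10.8 CPM (-0.39 ± 0.11; adjusted p = 0.0339). Zmynd11, between Dip2c and Chrm3, was 138 ± 11.0 and 148 ± 4.46 CPM and was not called (adjusted p = 0.374). Without RPC 2 none of these 4 calls held, and without RPC 1 or RPC 5 Larp4b, Mtr and Lgals8 lost theirs. Mtr and Lgals8 also lost theirs without RP 2, 4 or 6 or RPC 3, and Mtr without RP 7, with adjusted p up to 0.083.

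Around Slpi and Rbpjl, 1 of 6 tested genes was called. Matn4, between the members, was 43.6 ± 11.8 CPM in RP and 29.4 ± 9.48 in RPC (log2 fold change -0.57 ± 0.25 SE; edgeR adjusted p = 0.126), and was called lower without RP 7 (-0.70; adjusted p = 0.0341) and with the replicate block (-0.78; adjusted p = 0.0487). Sdc4, the heparan sulfate proteoglycan syndecan 4 beside Rbpjl, fell from 224 ± 70.5 to 91.9 ± 43.5 CPM (-1.29 ± 0.30; adjusted p = 0.0161), with ranges that overlap. Sdc4 had a centred r of 0.08 with Rbpjl (12 tumours), while Wfdc2, a protease inhibitor of the Slpi family 5 table genes beyond, had a centred r of 0.75 with Rbpjl and was 183 ± 69.6 and 195 ± 63.0 CPM (adjusted p = 0.842). The 5 seminal vesicle genes on the far side of Slpi held 0 or 1 counts over all tumours.

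**Figure D4:**
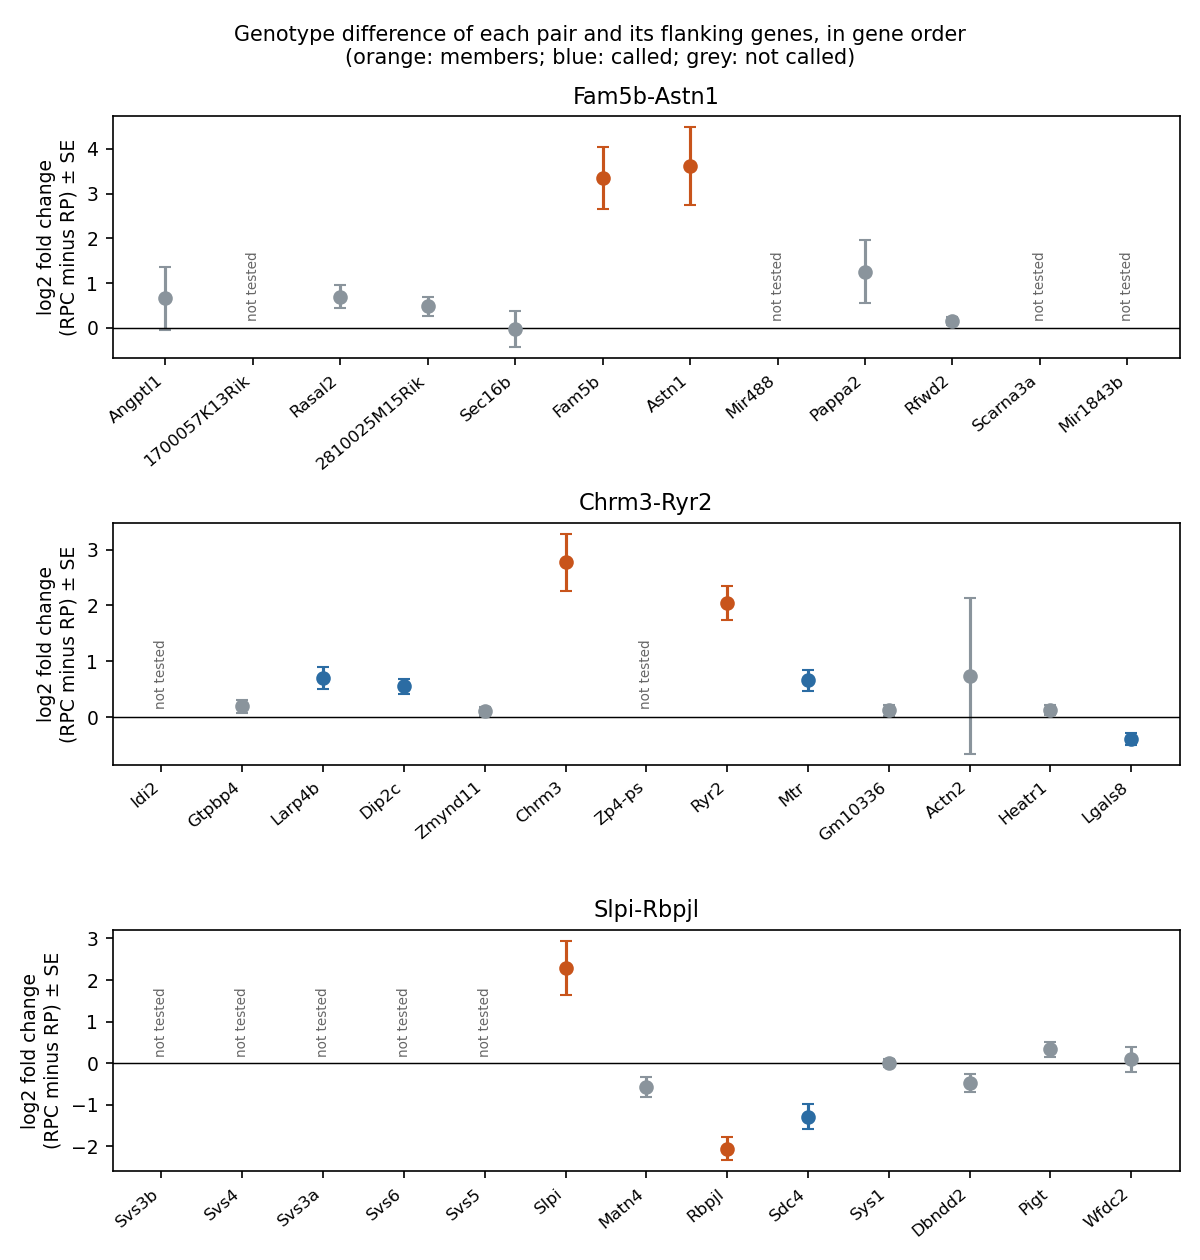
Log2 fold change (RPC minus RP, ± SE) of each tested gene in chromosomal order around the 3 pairs; members in orange, other called genes in blue, genes not called in grey. The members stand at 3.34 and 3.61, at 2.77 and 2.04, and at 2.29 and -2.06, while the other tested genes lie between -1.29 and 1.26.

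Genes that work with the members were read from lists, each described by counts and by its median beside the median of -0.02 over all tested genes. DESeq2 and limma voom called more genes than edgeR over the whole set, 3985 and 6357 of 14989. Their list counts are to be read against those totals and not against the edgeR share. For an unadjusted p under 0.05 no share over all genes is given, so those counts are no result on a list. Of 14 tested genes of the BRINP, astrotactin and neuronal migration list, 3 rose and 0 fell by edgeR, with a median log2 fold change of 0.33; at an unadjusted p under 0.05, 7 were higher and 3 lower, DESeq2 called 5 and 2, and limma voom 5 and 3. The share called by edgeR is near its 18.3% of all tested genes, so the members named next are single genes and not a result on the list. Dbc1, the BRINP family member now named Brinp1, rose from 6.01 ± 2.0 to 9.70 ± 1.10 CPM (edgeR adjusted p = 0.0365), the neural cadherin Cdh2 from 39.5 ± 12 to 65.1 ± 11.2 CPM (adjusted p = 0.0216), and Pafah1b1, the dynein regulator of neuronal migration, from 223 ± 16.6 to 269 ± 22.2 CPM (adjusted p = 0.0457). The other astrotactin, Astn2, was 9.50 ± 1.72 and 12.5 ± 2.03 CPM (adjusted p = 0.102). Dbc1 and Pafah1b1 each lost the call without any 1 of 9 tumours, RP 2, 4, 5, 6 or 7 or RPC 1, 2, 3 or 5 (adjusted p up to 0.0863 and 0.146), and Cdh2 without RPC 2 (0.0735).

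Of 15 tested genes of the muscarinic and Gq list, 2 rose and 1 fell by edgeR, with a median of 0.26; the share called is near the 18.3% of all tested genes. Both other muscarinic receptors that were tested rose: Chrm4 from 1.17 ± 0.588 to 4.04 ± 1.26 CPM (log2 fold change 1.77 ± 0.39 SE; edgeR adjusted p = 0.0135) and Chrm2 from 0.357 ± 0.252 to 1.16 ± 0.405 CPM (1.66 ± 0.52; adjusted p = 0.0425). Both act through Gi, unlike Chrm3, and neither lies beside Chrm3. Chrm1 and Chrm5 held 103 and 1 counts in all and were not tested. Plcb3, a phospholipase C that Gq activates, fell from 77.4 ± 20.6 to 49.9 ± 3.66 CPM (adjusted p = 0.022). Chrm4 kept its call without each single tumour, Plcb3 lost it without RPC 2 (adjusted p = 0.0526), and Chrm2 lost it without any of 7 tumours, RP 2, 4 or 7 or RPC 1, 2, 3 or 5 (adjusted p up to 0.106).

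Of 25 tested genes of calcium release and storage, 0 rose and 1 fell by edgeR, with a median of 0.06. Of all tested genes 9.64% rose and 8.61% fell. At an unadjusted p under 0.05, 2 of the 25 were higher and 2 lower, DESeq2 called 2 and 2, and limma voom 4 and 2. Orai1, the store-operated calcium channel of the plasma membrane, fell from 13.2 ± 2.70 to 7.24 ± 1.10 CPM (log2 fold change -0.86 ± 0.17 SE; edgeR adjusted p = 0.0093). The other ryanodine receptors were not called: Ryr3 was 0.966 ± 0.841 and 3.02 ± 1.19 CPM (adjusted p = 0.0647), and Ryr1 11.0 ± 21.0 and 16.2 ± 32.5 CPM (adjusted p = 0.814). Muscle markers summed to 30.6 to 1720 CPM in RP and 22.1 to 3040 in RPC, the highest being RP 6 and RPC 5. Ryr2 was 1.54 CPM in RP 6 and 5.0 CPM in RPC 5, neither the highest of its group, and its centred r with the muscle sum was -0.32 (12 tumours). The part of muscle in the Ryr2 levels was not tested.

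Chrm3 moved with markers of other cells within genotype. Its centred r over the 12 tumours was -0.71 with the follicular sum, 0.71 with the macrophage sum and -0.80 with the acinar sum, which is nearly all Amy1. It was 0.63 with the neutrophil, 0.60 with the glial, -0.58 with the neuroendocrine, -0.51 with the adipocyte, -0.45 with the muscle and -0.36 with the airway sum. RP 3, the highest RP tumour for Chrm3, had the lowest follicular sum of RP (2150 CPM) and the highest macrophage sum (1360 CPM). RPC 2, the highest RPC tumour, had the lowest follicular sum of RPC (474 CPM) and a macrophage sum of 571 CPM, second to 684 CPM in RPC 5. With the follicular score as a covariate the log2 fold change of Chrm3 was 0.93. The part of these cells in the Chrm3 result was not tested.

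Of 6 tested genes of the WAP inhibitor and target protease list, 0 rose and 0 fell by edgeR, with a median of 0.04. Of all tested genes 9.64% rose and 8.61% fell. At an unadjusted p under 0.05, 1 of the 6 was lower, DESeq2 called 1 lower and limma voom 1 higher. The leukocyte proteases that Slpi inhibits were near absent: Elane held 5 and Ctsg 3 counts over all 12 tumours. Neutrophil markers summed to 7.78 to 19.9 CPM in RP and 6.39 to 19.7 in RPC, and 0 of 4 tested were called by edgeR, DESeq2 or limma voom, or at an unadjusted edgeR p under 0.05. Slpi is also made by airway epithelium, and airway markers summed to 47.5 to 2060 CPM in RP and 19.7 to 985 in RPC. By edgeR 1 of 8 tested, Bpifa1, was lower in RPC, against 8.61% of all tested genes. Of those not called, Muc5b (log2 fold change 4.29), Bpifb1 (1.81), Ltf (0.91) and Foxj1 (0.69) lay above 0. Scgb1a1 (-5.0), Scgb3a2 (-2.91) and Scgb3a1 (-2.73) lay below 0. Among the tested ones the highest mean was that of Bpifa1 in RP (406 CPM) and of Ltf in RPC (128 CPM). RP 7 and RP 6, the highest RP tumours for Slpi, had the highest airway sums of RP (2060 and 996 CPM), and RPC 5 and RPC 1, the highest RPC tumours for Slpi, had the highest of RPC (985 and 185 CPM). RP 4, with an airway sum of 502 CPM, had a Slpi level of 4.86 CPM. The centred r with the airway sum was 0.41 for Slpi and -0.65 for Rbpjl (12 tumours). The part of airway tissue in the opposite variation of this pair was not tested.

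Of 12 tested genes of the Rbpj and PTF1 list, 1 rose and 0 fell by edgeR, with a median of 0.10. The share that rose is near the 9.64% of all tested genes, of which 8.61% fell. At an unadjusted p under 0.05, 3 of the 12 were higher and 0 lower, DESeq2 called 1 higher and limma voom 4 higher. Tcf12, an E protein of the kind that pairs with Ptf1a, rose from 65.3 ± 6.43 to 82.0 ± 8.73 CPM (edgeR adjusted p = 0.0315) and lost the call without any of 7 tumours, RP 2, 4, 6 or 7 or RPC 2, 3 or 5 (adjusted p up to 0.109). Rbpj was 47.4 ± 12.9 and 49.3 ± 6.57 CPM (adjusted p = 0.843). Ptf1a held 2 counts over all 12 tumours, all of them in RP. Of the 11 acinar markers Cela3b, Ctrb1 and Amy2a5 held 0 counts, Prss2, Cpb1, Cela2a, Cel and Pnlip held 1 to 19, and Cpa1 held 79, 68 of them in RP. Cela1 was 1.65 CPM and Amy1 124 CPM in RP. These last 2 were tested, and edgeR and DESeq2 called 0, limma voom 1 lower, and 0 had an unadjusted edgeR p under 0.05.

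Glial markers, listed for the Fam5b and Astn1 pair, summed to 115 to 155 CPM in RP and 92.8 to 116 in RPC. By edgeR 2 of 4 tested were lower in RPC, against 8.61% of all tested genes. The centred r with that sum was -0.35 for Fam5b and -0.27 for Astn1 (12 tumours). RP 5, the high RP tumour for both genes, had a glial sum of 116 CPM, a follicular sum of 6880 CPM and the lowest neuroendocrine sum of RP, 100000 CPM. The part of these cells in the levels of RP 5 was not tested.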

How the data were processed

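Counts per gene were deposited by the authors as 1 table per tumour (23284 genes and 5 summary rows, which were left out). TRIzol extraction, oligo(dT) selection and NEBNext Ultra libraries are stated in the labels' protocols. The submitters' processing notes name the build mm9 and, as tools, TopHat2 2.0.12, HTSeq 0.6.1 and bcl2fastq 1.8.2; no source used here gives the annotation or strand setting. Libraries of a group all differed by more than sampling noise. Reads outside genes made up 13.1% to 17.6% of each table. Depth, 9.11 M to 57.3 M, gives a floor of 3 counts of 0.0502 to 0.312 CPM.

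Genes were filtered with filterByExpr (minimum count 10), scaled by TMM and compared with edgeR 4.0.16's robust quasi-likelihood test (R 4.3.3, limma 3.58.1; adjusted p under 0.05), all 12 tumours, no covariate. Correlations used log2 CPM (prior count 2; Python 3.11.15, scipy 1.17.1), all 5040 pairings for 7 tumours and 100000 resamples within genotype for 12, with Benjamini-Hochberg adjustment over 6. Gene order came from RefSeq (GRCm38.p6), in which 14886 of 14989 tested genes were placed. Both statistics were tested on simulated data.

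Members and lists were chosen with earlier results of these data known. Named by rule are the members, the called and nearest tested flanking genes, up to 3 called genes per list and the 3 most alike genes per member; Crebbp, uncalled relatives of members and undetected partners were added after their values were seen. Alternatives were DESeq2 1.42.0, limma voom, 2 scalings, 2 filters, 2 prior counts, a follicular score, a replicate block and each tumour left out. The labels do not say that numbers pair tumours, and same-numbered tumours correlated at -0.056 to 0.159. Numbers were not taken as pairs, though a pairing is not excluded.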

Additional observations from a re-analysis of the deposited data

Results flagged for a closer look

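Of 14 groups of values searched (the 6 members and the library depth in each genotype), 3 held a tumour that stood apart from the others by Dixon's criterion, which by chance marks about 1 group in 20. Astn1 in RP 5 was at 3.62 log2 CPM, above the other RP tumours by a gap of 0.58 of the group's range. Rbpjl in RP 7 was at 2.39 log2 CPM, below the others by 0.71 of the range. The gene counts of RP 5, at 57.3 M, were above the others by 0.80 of the range. Thinned to 14.2 M counts, RP 5 left r of Fam5b with Astn1 at 0.86 within RP and 0.85 centred, and that of Slpi with Rbpjl at -0.69 and -0.46.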

How the results depend on the processing

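The members kept the direction of their log2 fold change under every alternative that gave a value; Chrm3 did not pass a minimum count of 30. Values that moved by more than the gene's pooled SD within genotype were Fam5b 4.38 and Astn1 5.1 with limma voom, both also without RP 5 (4.73 and 5.61), and Chrm3 0.93, Ryr2 1.49 and Rbpjl -1.47 with the follicular score as a covariate. Slpi, which spreads more, was 1.4 with that covariate, 3.17 with limma voom and 3.47 with the replicate block. Fam5b with Astn1, not past the threshold as reported, passed it for the centred r with a prior count of 5 (0.88; adjusted p = 0.0475) and over replicates 1 to 5 (0.91; adjusted p = 0.0206; with the replicate block 0.96; adjusted p = 0.00144), sets that lack RP 6 and RP 7. It also passed centred without RP 6, RP 7 or RPC 1 (adjusted p = 0.0458, 0.0186 and 0.0443) and within RP without RP 7 (0.0389), and Slpi with Rbpjl passed within RP without RP 6 or RP 7 (0.0458 and 0.0167) and centred without RPC 1 (0.0443). Over replicates 1 to 5 the centred r of Slpi with Rbpjl was -0.22, and -0.76 with the replicate block. The rho of Slpi with Rbpjl within RP was -1.0 to -0.94 with 1 tumour left out. The labels do not say whether the tumour numbers pair the tumours. Among RP 1 to 5, RPC 1 correlated best with RP 1, and RPC 2 to 5 each with another number. Such weak correlations cannot exclude a pairing. Leaving out 1 tumour at a time, r ranged from 0.38 to 0.90 within RP and 0.45 to 0.89 centred for Fam5b with Astn1, from -0.42 to 0.09 and -0.08 to 0.43 for Chrm3 with Ryr2, and from -0.94 to -0.72 and -0.63 to -0.24 for Slpi with Rbpjl. Both lows of Fam5b with Astn1 were without RP 5, and -0.24 was without RP 7. Chrm3 with Ryr2 changed sign with RP 5 thinned to 14.2 M counts (0.01 within RP), an alternative chosen after seeing the data, and with the follicular covariate (-0.02 centred); both lie close to 0. The 2736 called genes became 6357 with limma voom, 3 with the follicular covariate, 463 with the replicate block against 868 without it on the same 10 tumours, and 1074 to 3510 with 1 tumour left out. All 13 called flanking and list genes lost the call with the follicular covariate, 11 with the replicate block and 10 without at least 1 tumour; the cause was not tested. With that covariate the log2 fold changes of Chrm4 (2.41), Plcb3 (-0.95) and Orai1 (-0.80) stayed near or above their size, and the other 10 shrank, Cdh2 to 0.05. Calls were gained without RP 1 by Dbndd2 (adjusted p = 0.0166) and without RP 6 by Actn2 (0.0499). Log2 fold changes near 0 changed sign: Sec16b 0.21 and Sys1 -0.05 with limma voom, and Sys1 -0.00 with upper quartile scaling. Actn2, at 0.74 ± 1.4 (SE) in the main fit, also changed sign, to -3.54 with the follicular covariate. Leave-one-out ranges were -0.34 to 0.26 for Sec16b, -0.03 to 0.05 for Sys1 and -2.01 to 3.67 for Actn2. Depth limits Fam5b and Chrm3 most, with 91 and 56 counts in RP.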
